A study of Oryza sativa with 4 samples.

Results

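The aquaporins of rice measured here are the genes of the PIP, TIP, NIP and SIP classes. They were taken from the array annotation by name: a probe set counted when it was given to a single gene whose symbol or synonym is a class name with its 2 family numbers (NIP1-1, for example). The reference gene table held 29 such genes. The annotation gave 31 probe sets to 25 of them, out of 17905 genes with a probe set of their own, and where a gene had several, the one brightest on average over the arrays stands for it. There were 10 PIP, 8 TIP, 5 NIP and 2 SIP genes. NIP1-2, NIP3-3, PIP2-3 and TIP5;1 had no such probe set and were not analysed here.

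Aquaporins are membrane channels that let water, and in some classes small uncharged solutes, cross a lipid bilayer along a gradient without spending energy. Plasma membrane intrinsic proteins (PIPs) carry water into and out of the cell, and tonoplast intrinsic proteins (TIPs) sit mainly in the membrane of the vacuole, whose filling drives the enlargement of young plant cells. NOD26-like intrinsic proteins (NIPs) pass silicic acid, boric acid and other small solutes, and small basic intrinsic proteins (SIPs) have been found in the endoplasmic reticulum in Arabidopsis.

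RNA came from panicle primordia, the young inflorescences, of Pusa 1266 and Pusa Basmati 1, 2 rice cultivars of the Indica group, at panicle stage 0 of the labels. Each cultivar had 2 biological replicates on 1 array each, with no treatment given in the labels. The sample titles call both cultivars low in grain number, whereas the characteristics call Pusa 1266 high and Pusa Basmati 1 low, so the groups are named by cultivar. The sources used here do not give the age of the plants, the number of panicles per sample or how the primordia were dissected.

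The arrays did not stand at 1 level. Median signals per array ran from 6.8 to 11.5, and the mean signals without the highest and lowest 2% differed by up to 1.98 times, with both Pusa 1266 arrays below both Pusa Basmati 1 arrays. The hybridization controls, the bacterial and phage transcripts that the platform's protocol adds to every array, did not follow this order: their geometric mean signals were 498.9 and 606.5 in Pusa 1266 against 384.5 and 494.7. Which scaling is right was not settled by these data. The main values below are log2 differences, Pusa 1266 minus Pusa Basmati 1, after quantile normalization, which gives every array the same distribution of log2(signal + 16). The other 4 scalings set beside it were equal trimmed means, the array medians, the deposited scaling as it stands, and equal hybridization controls. The median difference of all tested genes was 0.07 after quantile normalization and 0.07 with equal trimmed means, but −0.38 with median centring, −0.62 with the deposited scaling and −0.91 with hybridization control scaling. Small differences therefore changed sign with the scaling, and a value is also given relative to that median where this matters. Subtracting the median takes out most of what the scalings by a factor differ in. Such values therefore agree between those scalings largely by construction, and this agreement is not separate support. The ratio of 3' to 5' signal, a sign of RNA integrity, was higher in Pusa 1266 for all 5 control pairs, by 2.42 times for GAPDH (19.4 ± 1.28 against 8.03 ± 0.669, SD, n = 2 per cultivar), and its part in the differences below was not tested.

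All 8 markers of the young panicle were tested, 6 of them higher and 1 lower in Pusa 1266 (34.7% and 26.3% of all genes) after quantile normalization, but 2 higher and 3 lower (4.58% and 66.7%) with the deposited scaling. Of 7 further probe sets of these markers 2 were higher and 4 lower, 3 of the latter being those of MADS14. The markers' summed signals of 8814.3 and 9715.8 in Pusa 1266 stood beside 9299.7 and 10153.2, so transcripts of the labelled tissue were present on every array. Markers of green leaf tissue were lower in Pusa 1266 for 3 of 4 tested genes and higher for none, beside 26.3% and 34.7% of all genes, with a summed signal over 5 genes of 993.9 and 988.0 against 3279.6 and 3777.2. The fifth, RBCS1, stayed below a signal of 16 on all arrays. The part of leaf tissue in the aquaporin values was not tested. In whole primordia, fewer cells of a type and less RNA per cell cannot be told apart.

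Of the 25 aquaporins, 18 passed the filter on dim probe sets, a signal above the array median on at least 2 of the 4 arrays. In Pusa 1266, 7 were higher and 3 lower, and 8 were not called, at a threshold of 0.05 on the p-value of limma, Benjamini-Hochberg adjusted over all 30029 probe sets tested. The 55.6% of aquaporins called stand beside 61.0% of all 15180 tested genes, and the shares of 38.9% higher and 16.7% lower beside 34.7% and 26.3%, so the aquaporins called as a whole were about as frequent as other genes. A difference of 2-fold or more was reached by NIP1-1 and NIP2-2 upward and TIP2-2 downward, beside 5.53% and 7.34% of all genes. The median difference of the 18 was 0.18, against 0.07 for all genes. The cultivars did not overlap for 15 of the 18, or 83.3%, where the share of all genes was 81.9%.

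The direction held and the call was kept under all 5 scalings for 4 of the 10 called genes: NIP1-1 upward and PIP1-1, PIP1-2 and TIP2-2 downward. Of all tested genes, 2.89% were higher and 24.9% lower under all 5. Of the 3990 genes lower after quantile normalization 3774 were lower under all 5, but of the 5273 higher ones only 439 were higher. Median centring, the deposited scaling and hybridization controls shift most genes downward in Pusa 1266, so a lower call could hardly be lost under them. For PIP1-1, PIP1-2 and TIP2-2 the kept call therefore adds little. Both the counts of aquaporins and those of all genes moved with the scaling. With equal trimmed means 8 were higher and 4 lower, beside 34.6% and 27.1% of all genes. With median centring 2 were higher and 6 lower (8.48% and 51.7% of all genes), with the deposited scaling 2 and 9 (4.58% and 66.7%), and with hybridization control scaling 1 and 13 (2.89% and 83.0%).

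**Figure D1:**
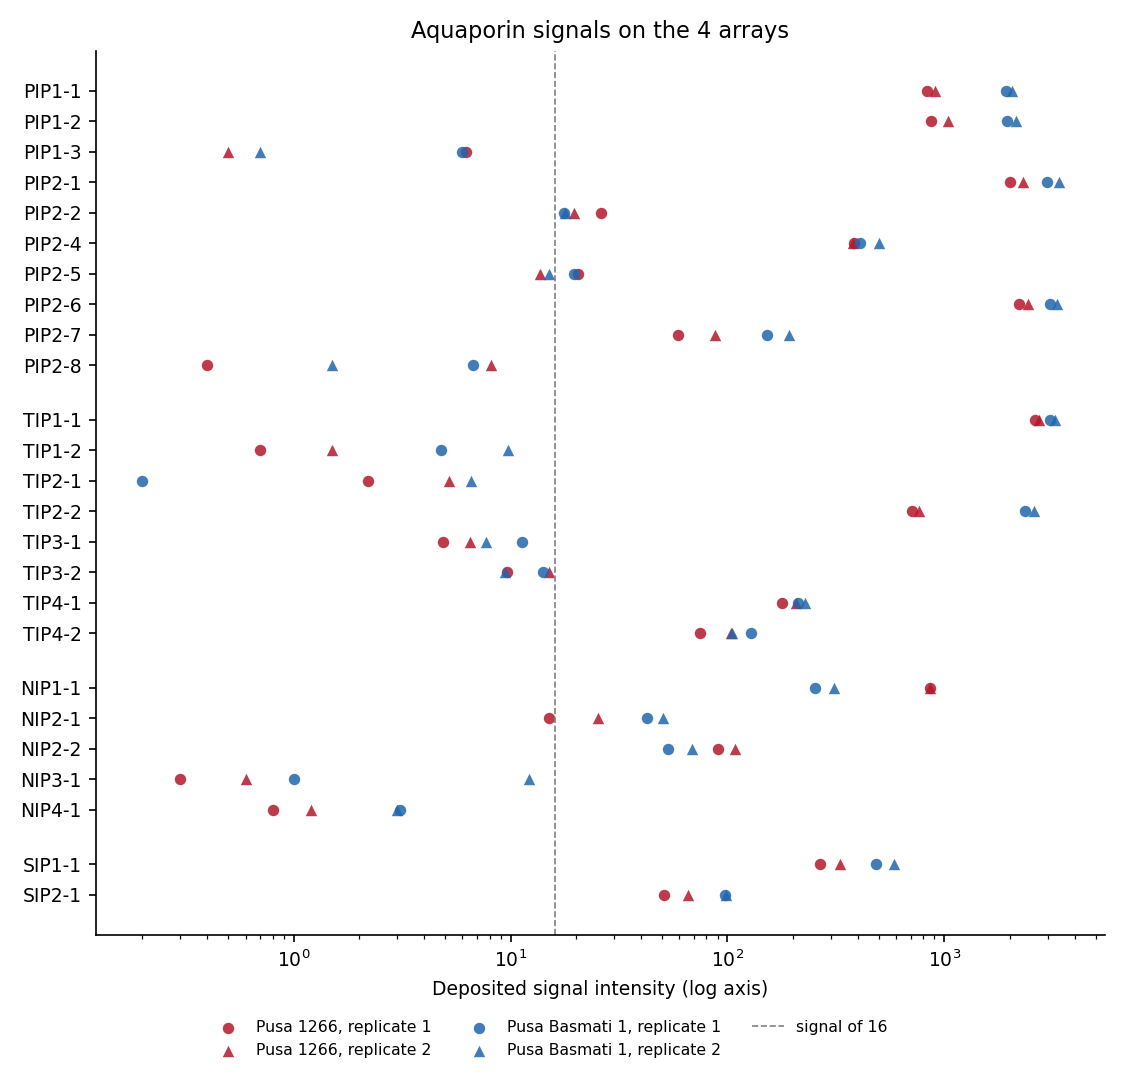
Deposited signal intensity on a log axis for the probe set of each of the 25 aquaporins on the 4 arrays, red for Pusa 1266 and blue for Pusa Basmati 1, circles for replicate 1 and triangles for replicate 2. The red points of NIP1-1 and NIP2-2 lie to the right of the blue, those of TIP2-2, PIP1-1 and PIP1-2 to the left, and all points of 8 dim genes lie left of the dashed line at 16. Signals of different probe sets are not comparable as levels.

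The PIPs of the plasma membrane fall into the PIP1 and PIP2 subgroups. PIP1 proteins are known from maize to reach the plasma membrane in company with PIP2 proteins, which make the more active water channels. Both tested PIP1 genes were lower in Pusa 1266, while 2 of 6 tested PIP2 genes were higher and none lower, beside 34.7% higher and 26.3% lower of all genes. With the deposited scaling no PIP2 gene was higher and 3 of 6, or 50.0%, were lower, beside 66.7% of all genes. Nor was any higher with median centring or hybridization controls. There 16.7% and 66.7% of PIP2 genes were lower, beside 51.7% and 83.0% of all genes. With equal trimmed means 4 were higher and 1 lower, beside 34.6% and 27.1%. The difference between the subgroups was not tested.

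PIP1-1 (LOC4330248, chromosome 2), also known as RWC1, had signals of 833.8 and 907.6 in Pusa 1266 against 1922.9 and 2047.4. Both Pusa 1266 arrays lay below both others on the deposited scale and after normalization. It fell by 0.46 ± 0.06 on the log2 scale (SE, n = 2 per cultivar, adjusted p = 0.000297), or 1.37-fold, and stood at −1.17 with the deposited scaling. PIP1-2 (LOC9270874, chromosome 4) had signals of 868.8 and 1036.5 against 1937.6 and 2143.5. It fell by 0.38 ± 0.06 (adjusted p = 0.000741), or 1.30-fold, again without overlap. Relative to the median of all genes, PIP1-1 lay between −0.44 and −0.59 and PIP1-2 between −0.36 and −0.51 over the scalings. These 2 genes differed by nearly the same amount: the log2 ratio of PIP1-1 to PIP1-2 within an array was −0.13 ± 0.09 (SD, n = 2) in Pusa 1266 and −0.04 ± 0.04 in Pusa Basmati 1, with overlap. PIP1-3, or RWC3, had signals of 6.2 and 0.5 against 6.0 and 0.7 and was too dim to test.

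PIP2-4 (LOC4343119), PIP2-5 (LOC4343121) and PIP2-1 (LOC4343122) stand next to each other on chromosome 7, with no protein-coding gene between them in the reference order. PIP2-4 had signals of 382.8 and 378.6 in Pusa 1266 against 409.8 and 497.7. It rose by 0.57 ± 0.09 after quantile normalization (adjusted p = 0.000897), or 1.48-fold, although its deposited signals were lower in Pusa 1266 on both arrays. The direction thus rests on the scaling: it was −0.24 with the deposited scaling, −0.0034 with median centring and −0.56 with hybridization controls, the last one past the threshold. Relative to the median of all genes PIP2-4 lay 0.35 to 0.49 higher over the scalings. The log2 ratio of PIP2-4 to PIP1-1 within an array, which no scaling of arrays by a factor can change, was 0.94 higher in Pusa 1266 and did not overlap.

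PIP2-1, whose protein is a water channel of the plasma membrane, had signals of 2007.3 and 2301.1 against 2989.4 and 3377.8. Its difference of −0.05 ± 0.05 was not called (adjusted p = 0.396), with a 95% interval from −0.16 to 0.06. With equal trimmed means it was 0.24 and passed (adjusted p = 0.00464), and with the deposited scaling it passed in the other direction at −0.56 (adjusted p = 0.00116). Relative to the median of all genes it then stood at 0.17 and 0.06, and at −0.12 after quantile normalization. Another probe set on the same transcript record of PIP2-1 gave 0.06 ± 0.05, also not called, and the last of its probe sets read between 0.2 and 1 and was not tested. A probe set that the annotation shares between PIP2-1 and PIP2-5, and which counts for neither here, fell by 0.53 ± 0.06 (adjusted p = 0.000252), with signals of 643.7 and 814 against 1629.1 and 1880.5. Relative to the PIP2-1 probe set it was 1.64-fold lower in Pusa 1266 within the array. PIP2-5 itself was near the added constant of 16, with signals of 20.5 and 13.6 against 19.6 and 15. Its difference of 0.38 ± 0.21 was not called (adjusted p = 0.163). Without the second Pusa 1266 replicate it was 0.65 and passed (adjusted p = 0.0334), so it turned on that array.

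PIP2-6 (LOC4335226, chromosome 4) had signals of 2205.3 and 2427.4 in Pusa 1266 against 3061.9 and 3296.1. Its cultivars overlapped after normalization, and its difference of 0.05 ± 0.05 was not called (adjusted p = 0.459, 95% interval −0.07 to 0.18). As with PIP2-1, it was called upward with equal trimmed means (0.35) and downward with the deposited scaling (−0.45). Relative to the median of all genes it then stood at 0.28 and 0.16, and at −0.02 after quantile normalization. Against PIP1-2 within the array it was 1.56-fold higher in Pusa 1266. PIP2-7 (LOC4347729, chromosome 9) had signals of 59.1 and 87.3 against 152.3 and 192.8, lower in Pusa 1266 without overlap. Its difference of −0.30 ± 0.13 missed the threshold (adjusted p = 0.0793). It passed with equal trimmed means (−0.39, adjusted p = 0.0338) and in the same direction with the 3 remaining scalings. The size turned on the arrays used: it was −0.16 without the first Pusa 1266 replicate and −0.45 without the second. Without the first and second Pusa Basmati 1 replicates it was −0.37 and −0.22. Relative to the median of all genes it lay between −0.37 and −0.47 over the scalings.

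PIP2-2 (LOC4330049, chromosome 2) rose by 0.65 ± 0.19 (adjusted p = 0.0205) on signals of 26.2 and 19.6 against 17.7 and 17.9, close to the added constant. The size was 1.08 with a constant of 1 and 0.29 with one of 64. The call also ended with median centring at 0.43 (adjusted p = 0.0575), with the deposited scaling at 0.20 (adjusted p = 0.402) and with hybridization controls at 0.015 (adjusted p = 0.947). It ended likewise without the filter (adjusted p = 0.116) and with the mean over the gene's probe sets (0.30, adjusted p = 0.151). Leaving out 1 array ended the call in 3 of 4 cases: the adjusted p was 0.0907 without the first Pusa 1266 replicate, and 0.0825 and 0.0902 without the first and second Pusa Basmati 1 replicates. The probe set is of the kind that matches transcripts of several genes, and the other probe set of PIP2-2 read between 0.5 and 6. PIP2-8, the last PIP, was too dim to test, with signals from 0.4 to 8.1.

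**Figure D2:**
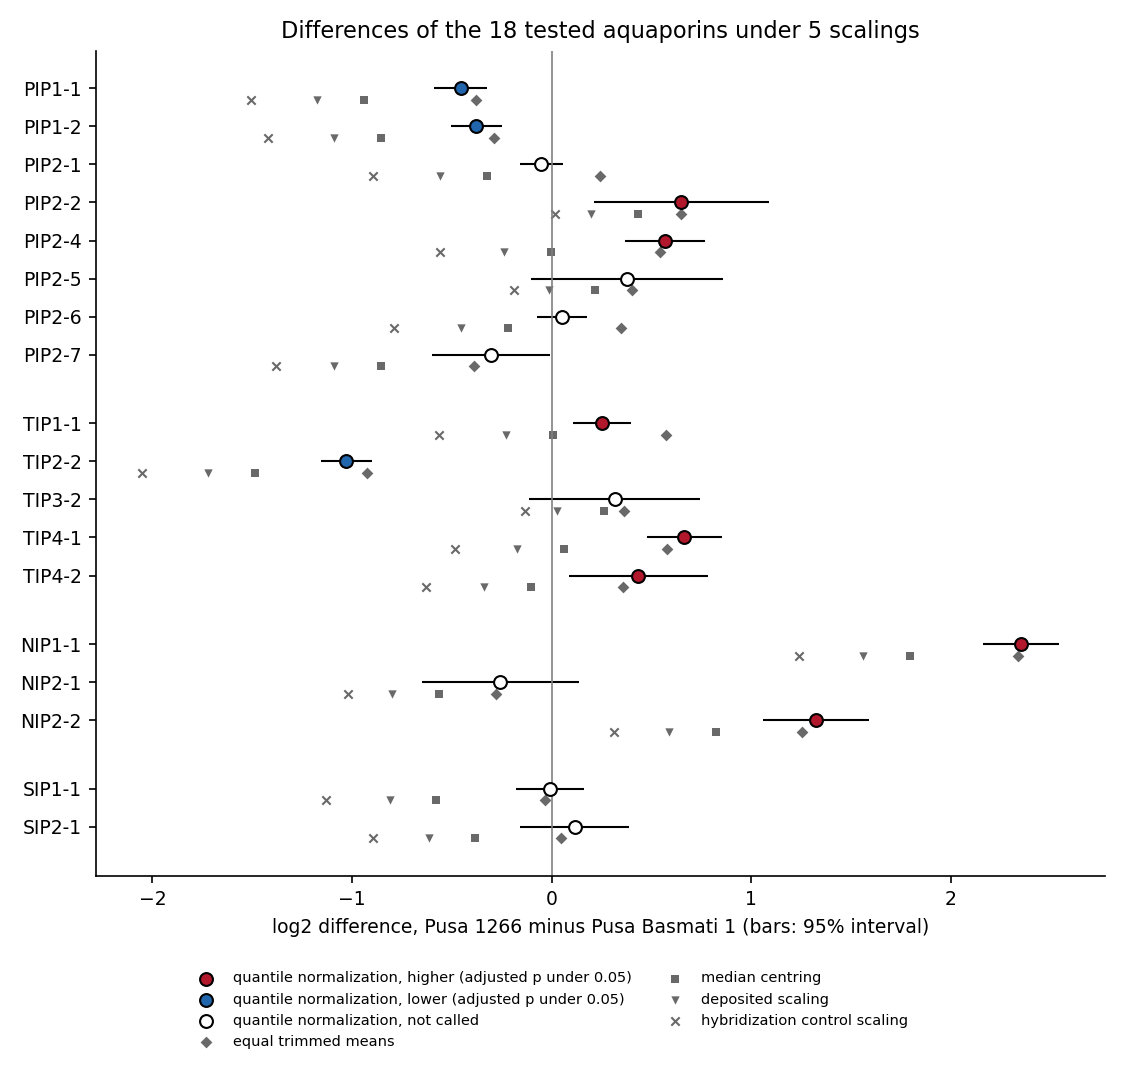
The log2 difference, Pusa 1266 minus Pusa Basmati 1, of the 18 tested aquaporins (large points, with 95% intervals from limma), red where higher, blue where lower and white where not called after quantile normalization, with the same difference under 4 other scalings as grey symbols below. The grey symbols of NIP1-1, NIP2-2 and PIP2-2 stay right of 0, PIP2-2 only just with hybridization controls (0.015). Those of PIP1-1, PIP1-2, PIP2-7, TIP2-2, NIP2-1 and SIP1-1 stay left of 0. Those of PIP2-4, TIP1-1, TIP4-1 and TIP4-2, among others, lie on both sides.

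Among the TIPs of the vacuole membrane, TIP2-2 was lower in Pusa 1266 after quantile normalization. Of the other 4 tested genes, TIP1-1, TIP4-1 and TIP4-2 were higher and TIP3-2 was not called. These 3 higher and 1 lower of 5 stand beside 34.7% and 26.3% of all genes. With the deposited scaling 0 were higher and 1 lower (4.58% and 66.7% of all genes), with median centring 0 and 1 (8.48% and 51.7%). With hybridization controls they were 0 and 4 (2.89% and 83.0%), and with equal trimmed means 2 and 1 (34.6% and 27.1%). A second probe set of TIP1-1 was called lower. TIP2-2 (LOC4340941, chromosome 6) had signals of 710.3 and 767.2 in Pusa 1266 against 2352.8 and 2595.4. The groups were far apart compared with their replicates. It fell by 1.03 ± 0.06 (SE, n = 2 per cultivar, adjusted p = 3.2e-06), or 2.04-fold, and between 0.92 and 2.05 over the other scalings. Relative to the median of all genes it was −1.10, and between −0.99 and −1.14 under the other scalings. Its probe set is of the kind in which some probes may match other transcripts, and it is the only one the annotation gives to TIP2-2.

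TIP4-1 (LOC4338163, chromosome 5) had signals of 178.2 and 207.1 against 210.6 and 226.7. It rose by 0.66 ± 0.08 (adjusted p = 0.000248), or 1.59-fold, after quantile normalization, but was not called at 0.06 with median centring and −0.17 with the deposited scaling, and was called lower at −0.48 with hybridization controls. Relative to the median of all genes TIP4-1 lay 0.43 to 0.59 higher over the 5 scalings, which agree here largely by construction. A second probe set of TIP4-1 read between 0.2 and 4.8 and was not tested. Within the array, TIP4-1 relative to TIP2-2 was 2.94-fold higher in Pusa 1266, with log2 ratios of −1.94 ± 0.07 and −3.50 ± 0.03 (SD, n = 2) that did not overlap. TIP4-2 (LOC4324277, chromosome 1) had signals of 74.8 and 104.3 against 128.4 and 104.7. It passed narrowly at 0.43 ± 0.15 (adjusted p = 0.0403). The TIP4-2 probe set may match other transcripts. The call ended with equal trimmed means (adjusted p = 0.0799), with a constant of 1 (0.0509), without the filter (0.126) and without the trend in limma (0.0892). Without the second Pusa 1266 replicate the difference was 0.33 and without the second Pusa Basmati 1 replicate 0.24. With hybridization controls TIP4-2 was called lower at −0.63. Over the 5 scalings it lay 0.28 to 0.36 above the median of all genes.

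TIP1-1 (LOC4331608, chromosome 3), a water channel of the vacuole membrane, gave opposite calls with its 2 probe sets, both designed on the same transcript record. The brighter had signals of 2631.2 and 2748.5 in Pusa 1266 against 3068.8 and 3247.6. It rose by 0.25 ± 0.06 (adjusted p = 0.0103), and its adjusted p was 0.0783 without the first Pusa 1266 replicate, 0.0668 without the filter and 0.0955 without the trend in limma. The dimmer, with signals of 983.8 and 1038.6 against 2311 and 2258.4, fell by 0.48 ± 0.09 (adjusted p = 0.00218). The log2 ratio of the brighter to the dimmer within an array was 1.41 ± 0.01 (SD, n = 2) in Pusa 1266 and 0.47 ± 0.08 in Pusa Basmati 1, a change of 1.93-fold in the ratio. The brighter lies in a range where the arrays differed less than among dimmer probe sets, and the part of this in the ratio was not tested. The direction of TIP1-1 therefore depended on the probe set as well as on the scaling, under which the brighter ranged from −0.56 with hybridization controls to 0.57 with equal trimmed means. Relative to the median of all genes the brighter lay between 0.18 and 0.51 over the scalings, and the dimmer between −0.43 and −0.58. The 2 matching probe sets of PIP2-1 kept the same ratio in both cultivars, 0.33 ± 0.01 and 0.34 ± 0.06 on the log2 scale.

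The other TIPs were dim. TIP3-2, of a pair known from storage vacuoles of seeds, read 9.6 and 15 against 14.1 and 9.4. Its difference of 0.32 ± 0.18 was not called (adjusted p = 0.187, 95% interval −0.11 to 0.74). TIP1-2, TIP2-1 and TIP3-1 were not tested, with signals between 0.2 and 11.3. For TIP1-2 (LOC4324303, chromosome 1) the 4 signals of 0.7, 1.5, 4.8 and 9.7 did not overlap between cultivars and were lower in Pusa 1266. The same held for the deposited signals of TIP3-1, NIP3-1 and NIP4-1, and the Pusa 1266 arrays stood lower as a whole. After normalization TIP3-1 overlapped, and 81.9% of all tested genes did not overlap. The signals of TIP1-2, TIP3-1, NIP3-1 and NIP4-1 all lay below 16, so no fold is given.

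Of the 3 tested NIPs, NIP1-1 and NIP2-2 were higher in Pusa 1266 and NIP2-1 was not called. These 66.7% higher and none lower stand beside 34.7% and 26.3% of all genes. With hybridization controls 1 was higher and 1 lower, beside 2.89% and 83.0%. After quantile normalization NIP1-1 had the largest difference of the tested aquaporins, whereas with the deposited scaling that of TIP2-2 was larger in size (−1.72 against 1.56), as with hybridization controls (−2.05 against 1.24). NIP1-1 (LOC4328814, chromosome 2) had signals of 863.2 and 855.4 in Pusa 1266 against 253 and 311.3. Its signals were higher in Pusa 1266 even on the deposited scale, where most genes were lower. It rose by 2.35 ± 0.08 (SE, n = 2 per cultivar, adjusted p = 3.48e-07), or 5.10-fold. The difference was 2.34 with equal trimmed means, 1.79 with median centring, 1.56 with the deposited scaling and 1.24 with hybridization controls, called in each. It lay 2.15 to 2.28 above the median of all genes. Against TIP2-2 within the array, NIP1-1 was 10.2-fold higher in Pusa 1266, with log2 ratios of 0.22 ± 0.09 and −3.14 ± 0.11 (SD, n = 2). Its single probe set is of the kind designed to match 1 transcript only.

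NIP2-1 and NIP2-2 are the silicon channels Lsi1 and Lsi6, of which Lsi1 takes up silicic acid in the root and Lsi6 passes it on in the shoot and its nodes. NIP2-2 (Lsi6, LOC4340558, chromosome 6) had signals of 90.7 and 108.4 against 53.4 and 68.5, higher on both Pusa 1266 arrays. Its single probe set may also match other transcripts. It rose by 1.32 ± 0.11 (adjusted p = 4.07e-05), or 2.50-fold. The difference was 1.25 with equal trimmed means, 0.82 with median centring and 0.59 with the deposited scaling, and the call ended with hybridization controls at 0.31 (adjusted p = 0.0816). Above the median of all genes it stood by 1.19 to 1.25. NIP2-1 (Lsi1, LOC4330713, chromosome 2) had low signals of 15 and 25.4 against 42.7 and 50.3, lower in Pusa 1266 without overlap. Its difference of −0.26 ± 0.17 was not called (adjusted p = 0.24, 95% interval −0.65 to 0.14). It passed with the deposited scaling at −0.80, with median centring at −0.57 and with hybridization controls at −1.02. Relative to the median of all genes NIP2-1 then stood at −0.18, −0.18 and −0.11, and at −0.33 after quantile normalization. OsPIN9, the one root marker beside the aquaporins with a probe set, stayed below 16 on all arrays.

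Lsi2, the silicon efflux carrier that works beside Lsi1, was also below 16 on all arrays, with signals of 0.6 and 0.3 against 1.5 and 0.3. No boron exporter of the BOR family was matched by name. NIP3-1 (also DTE1, chromosome 10), a boric acid channel, had signals of 0.3 and 0.6 against 1 and 12.1 and was not tested. NIP4-1 stayed between 0.8 and 3.1. The proton pumps of the vacuole membrane, which build the gradient that draws solutes and water into the vacuole, were represented by VATP-P1, a proteolipid subunit, whose difference of −0.06 ± 0.05 was not called (adjusted p = 0.381). VATP-P1 was called lower with median centring at −0.57, with the deposited scaling at −0.805 and with hybridization controls at −1.13. Relative to the median of all genes it then stood at −0.19, −0.19 and −0.22.

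Both SIP genes were measured on all arrays and neither was called, where 61.0% of all genes were. SIP1-1 (LOC4325361, chromosome 1) read 267.2 and 329.6 in Pusa 1266 against 486.4 and 584.2, and its difference was −0.01 ± 0.07 (adjusted p = 0.942, 95% interval −0.18 to 0.16). SIP2-1 (LOC4332668, chromosome 3) read 51.1 and 65.8 against 97.1 and 98, and its difference was 0.11 ± 0.12 (adjusted p = 0.454, 95% interval −0.16 to 0.39). Both overlapped after normalization. Their deposited signals were lower in Pusa 1266 on both arrays, and with the deposited scaling both were called lower, beside 66.7% of all genes. Relative to the median of all genes they then stood at −0.19 and 0.0022. Both were also called lower with hybridization controls, at −1.13 and −0.89, beside 83.0% of all genes. With median centring SIP1-1 was called lower at −0.58 and SIP2-1 was not called, beside 51.7% of all genes lower.

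**Figure D3:**
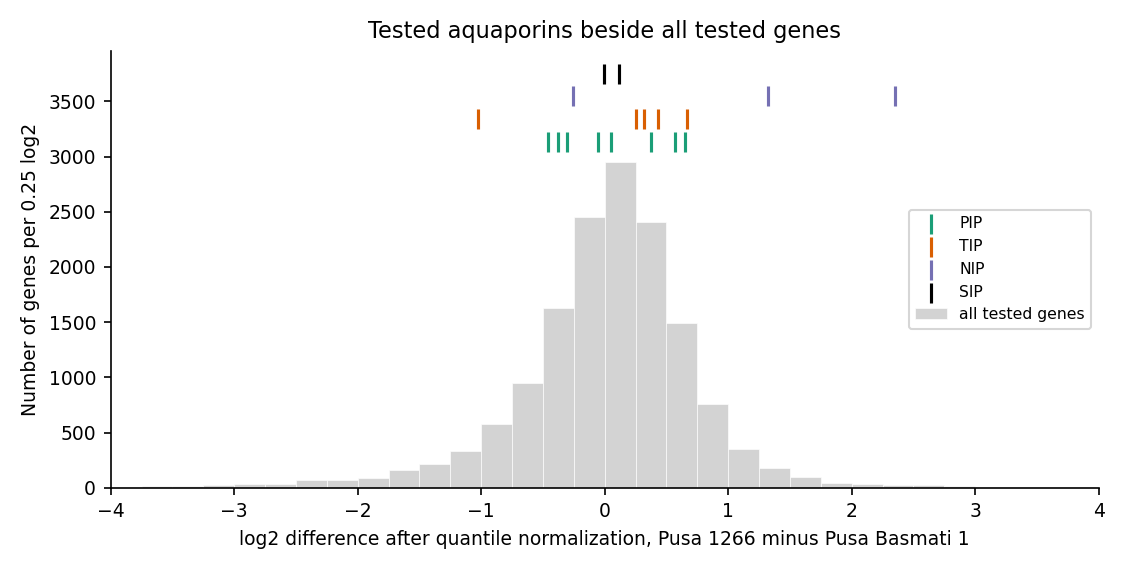
Histogram of the log2 difference after quantile normalization, Pusa 1266 minus Pusa Basmati 1, of all 15180 tested genes (grey bars, number of genes per 0.25), with a tick for each of the 18 tested aquaporins by class. Most PIP, TIP and SIP ticks lie over the bulk of all genes around the median of 0.07, while TIP2-2 at −1.03, NIP2-2 at 1.32 and NIP1-1 at 2.35 lie toward its sides.

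Within-array ratios set members of the family against each other, and multiplying an array by a factor does not change them. They can still move with brightness, since the arrays differed less at the bright end: the mean signal of Pusa Basmati 1 over that of Pusa 1266 was 1.78 at the 90th percentile of probe sets, 1.49 at the 99th and 1.28 at the 99.9th. Probe sets such as those of PIP2-1, PIP2-6 and TIP1-1 lie in that bright range, and the part of this narrowing in the ratios was not tested. The pairs were picked after their values had been seen and are a description. Relative to TIP2-2, NIP1-1 and TIP4-1 were higher in Pusa 1266, relative to PIP1-1 and PIP1-2 the PIP2-4 and PIP2-6 genes were higher, and PIP1-1 and PIP1-2 kept their ratio. Such a ratio shows unequal change and does not tell which of the 2 genes changed.

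**Figure D4:**
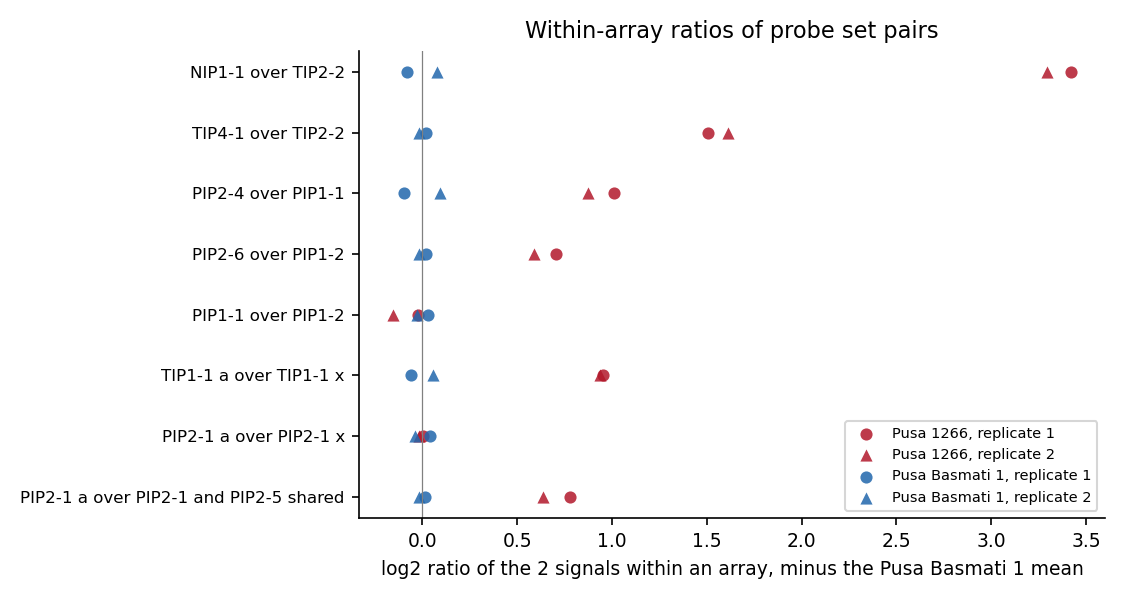
The log2 ratio of 2 deposited signals within each array, minus its mean in Pusa Basmati 1, for 8 pairs of probe sets, red for Pusa 1266 and blue for Pusa Basmati 1, with 1 point per array. The Pusa 1266 points lie apart from the Pusa Basmati 1 points for 6 pairs, furthest for NIP1-1 over TIP2-2 with a change of 3.36, and overlap for PIP1-1 over PIP1-2 and for the 2 probe sets of PIP2-1.

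Replicates of the tested aquaporins lay close together: the median distance between them was 0.103 on the log2 scale in Pusa 1266 and 0.116 in Pusa Basmati 1. The widest were PIP2-5 at 0.489 in the first and TIP4-2 at 0.379 in the second. Among the called genes, the differences of NIP1-1, NIP2-2, TIP2-2, TIP4-1, PIP2-2 and PIP2-4 exceeded both of these widest distances, while those of PIP1-1, PIP1-2, TIP1-1 and TIP4-2 did not exceed the first. The widest distances belong to PIP2-5, which is near 16, and TIP4-2, and do not measure the spread of each other gene. PIP1-1 and PIP1-2 had an SE of 0.06 each, against 0.19 for PIP2-2.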

How the data were processed

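Biotin-labelled cRNA from 8 ug of total RNA per sample was hybridized to Affymetrix arrays, per the labels' protocols. For each of 57381 probe sets the authors deposited a signal intensity on a linear scale. The submitters' processing notes name GCOS 1.2, and the sources used here do not give its background treatment, scaling or detection calls. Arrays give no counts, and their number, 2 per cultivar, limits the precision. The labels name biological replicates but not whether they came from separate plantings.

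The 123 control probe sets were left out. The rest were taken as log2(signal + 16), quantile normalized, filtered and fitted on all 4 arrays in limma 3.58.1 under R 4.3.3 (lmFit, then eBayes with trend). The same steps were first tested on simulated data. Arrays there differed by a constant factor and few probe sets were changed. That test therefore does not cover a gap between arrays that varies with brightness, or differences in most genes. The smallest two-sided p of an exact permutation test of 2 arrays against 2 is 0.333, and none was run. Plots used Python 3.11.15 and matplotlib 3.10.9.

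Genes were named through the identifiers of the array annotation and the reference table of assembly ASM3414082v1, which served for names, chromosomes and gene order only. A probe set ending _a_at matches transcripts of 1 gene, _s_at those of several genes, and _x_at may hold probes that match others. The text names every aquaporin, and other probe sets of an aquaporin where they differ from it in call or sign. Of the accompanying lists, 1 silicon partner transporter, 1 vacuolar pump, 8 panicle, 5 leaf and 1 root marker had a probe set, and no plasma membrane proton pump was matched. VP1 was left out of the pump list because in rice this name belongs to a transcription factor. Members, lists and tests were chosen with earlier results of these data known. The scaling on 9 hybridization control probe sets was added after seeing the data. The labels do not say whether the numbers 1 and 2 pair the arrays across cultivars, and the main fit did not pair them. The replicate differences of the cultivars correlated with r = 0.0123 across probe sets. Many of these were dim, so this value cannot settle the question.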

Additional observations from a re-analysis of the deposited data

How the results depend on the processing

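The scaling between arrays moved the results most. After quantile normalization 7 aquaporins were higher and 3 lower in Pusa 1266, with a median difference of 0.18. With the deposited scaling 2 were higher and 9 lower with a median of −0.40, with median centring 2 and 6 with −0.16, with hybridization control scaling 1 and 13 with −0.71, and with equal trimmed means 8 and 4 with 0.35. The medians of all tested genes were −0.62, −0.38, −0.91 and 0.07 in that order, and 0.07 after quantile normalization. Each lay below that of the aquaporins, but the scalings use the same 4 arrays and do not repeat the result. Bright probe sets, where the arrays differed less, are among the aquaporins, and their part in this was not tested. With the deposited scaling, median centring and hybridization controls, 50.0%, 33.3% and 72.2% of aquaporins were lower, beside 66.7%, 51.7% and 83.0% of all genes. The shares higher were 11.1%, 11.1% and 5.56%, beside 4.58%, 8.48% and 2.89%. Genes that turned with the deposited scaling were PIP2-4 (−0.24), PIP2-5 (−0.015), PIP2-6 (−0.45), SIP2-1 (−0.62), TIP1-1 (−0.23), TIP4-1 (−0.17) and TIP4-2 (−0.34). With median centring these were PIP2-4 (−0.0034), PIP2-6 (−0.22), SIP2-1 (−0.38) and TIP4-2 (−0.10), and with equal trimmed means PIP2-1 (0.24). With hybridization control scaling they were PIP2-4 (−0.56), PIP2-5 (−0.19), PIP2-6 (−0.79), SIP2-1 (−0.89), TIP1-1 (−0.56), TIP3-2 (−0.13), TIP4-1 (−0.48) and TIP4-2 (−0.63). Scalings that shift whole arrays turn a difference by their construction. With the mean over all probe sets of a gene PIP2-1 stood at 0.0061 and TIP1-1 at −0.11, with 5 genes higher, 3 lower and a median of 0.083. Without the filter, which tests 25 genes among more probe sets, 4 were higher and the median was 0.10. With a pseudocount of 64 the median was also 0.10, and with the filter at the 75th percentile, which left 13 genes, 0.052. Leaving out 1 array gave 5 to 7 higher, 3 to 4 lower and a median from 0.11 to 0.26. PIP2-6 ranged from −0.013 to 0.12 there, below 0 without the second Pusa Basmati 1 replicate, and SIP1-1 from −0.059 to 0.046, above 0 without that array or the first of Pusa 1266. The cause of these changes was not tested. With the replicate number as a block 7 were higher and 4 lower, the added one being PIP2-7 (−0.30, adjusted p = 0.0421). NIP1-1, PIP1-1, PIP1-2 and TIP2-2 kept direction and call under all 15 alternatives. For PIP1-1, PIP1-2 and TIP2-2 the scalings that shift most genes downward in Pusa 1266 could hardly have ended the call. Signals near 16, as for PIP2-2, PIP2-5, TIP3-2 and NIP2-1, limit the size that can be given.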
